A study of Homo sapiens with 2 samples.

Results

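The genes described here are the long intergenic noncoding RNAs (LINC genes) that were well measured in a mixture of 5 lung adenocarcinoma lines. Members are the gene entries named LINC plus digits that had at least 1000 unique molecular identifiers (UMIs) over all barcodes, together with the accessibility peaks within 2000 bases of their annotated transcription starts. The rule was met by 98 of 2077 LINC entries, of 36601 genes in all, and 1573 LINC entries had at least 1 UMI. The summed UMIs that chose the members are not a result. Just inside the threshold were LINC01091 with 1001 UMIs and LINC00909 with 1008 UMIs, and just outside it LINC00685 with 919 and LINC02649 with 911. All 98 members matched a RefSeq gene, all 98 are long noncoding RNAs there, and 13 carry another symbol in RefSeq.

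Long noncoding RNAs are transcripts without a recognised protein-coding frame that are usually capped, spliced and polyadenylated like messenger RNA. Many stay in the nucleus, and several act on the gene beside them or on chromatin, while for most no function is known. Compared with coding genes they are known for low levels and for narrow expression, and tumours often express LINC genes that their tissue of origin does not.

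The mixture held A549, H838, H1975, H2228 and HCC827, all established human lines of lung adenocarcinoma, untreated, grown apart in 1 culture each, frozen and pooled in equal parts before capture. Each droplet gave an RNA and an ATAC profile under 1 barcode, and only the fraction labelled 80% is analysed here, as 1 RNA and 1 ATAC library. With 1 library of each kind there is no replicate and no test. Levels are CPM, a line's summed UMIs or peak counts scaled to the line's total, and the intervals in parentheses are exact 95% Poisson intervals that cover counting error only. Fewer cells carrying a transcript and less of it per cell cannot be told apart from a level alone.

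Barcodes were given to lines by protein-coding marker genes, without any LINC gene. All 13 markers of A549 and all 9 of HCC827 were highest in their own barcodes, which are called A549-like and HCC827-like. The same lists chose the first barcodes of each line, so this was favoured by construction, and it held for the lists of the other 3 lines too. The leads varied. EGFR had 8296 CPM in HCC827-like barcodes against 810 in the DHRS2 line, and CEACAM6 28.5 CPM against 27.7 in the S100A9 line. The other 3 lines are called by a leading gene, as the S100A9 line, the SLC30A8 line and the DHRS2 line, since their markers gave them no line name. They comprised 658 A549-like, 397 HCC827-like, 371 S100A9-line, 552 SLC30A8-line and 273 DHRS2-line barcodes, with 4002801 to 6920979 UMIs and 7227266 to 19538205 peak counts per line. Of these 2251 barcodes, 2217 (98.5%) were placed by their ATAC profile in the cluster of that line. Median mitochondrial shares were 13.8% in HCC827-like barcodes, 9.98% in the DHRS2 line and 9.14% in the S100A9 line, against 0.416% in the SLC30A8 line and 0.401% in A549-like barcodes. Summed immune markers lay between 5.00 and 20.0 CPM, endothelial markers between 1.498 and 98.1 CPM and fibroblast markers between 5.50 and 150.4 CPM per line. The 3 red cell markers were at 0, as were MS4A1 and NKG7 among the 8 immune markers.

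Together the 98 members held 390996 of 62477861 UMIs (0.626%) and 79.0% of the UMIs of all LINC genes. Their share of a line's UMIs was largest in HCC827-like barcodes, at 0.973% (95% binomial interval 0.965 to 0.981%). It was 0.665% in A549-like barcodes (0.657 to 0.673%), 0.654% in the SLC30A8 line (0.648 to 0.661%), 0.565% in the DHRS2 line (0.559 to 0.571%) and 0.534% in the S100A9 line (0.529 to 0.540%). HCC827-like barcodes also held the largest group of members by highest level: 33 of 98 (33.7%) had their highest level there, against 12.5% of all 9181 genes with at least 1000 UMIs. A549-like barcodes held the highest level of 20 members (20.4%, against 25.6% of all genes), the SLC30A8 line of 18 (18.4%, against 26.9%), the S100A9 line of 16 (16.3%, against 20.3%) and the DHRS2 line of 11 (11.2%, against 14.6%). At 2-fold over the mean of the other lines, 33 members (33.7%) were higher in HCC827-like barcodes, against 6.26% of all genes. The same count was 16 in A549-like barcodes (16.3%, against 9.65% of all genes), 17 in the S100A9 line (17.3%, against 9.55%), 16 in the SLC30A8 line (16.3%, against 10.8%) and 10 in the DHRS2 line (10.2%, against 5.82%). Members 2-fold lower than the mean of the others numbered 53 in the SLC30A8 line (54.1%, against 17.9% of all genes), 46 in A549-like barcodes (46.9%, against 18.0%), 42 in the S100A9 line (42.9%, against 19.9%), 35 in the DHRS2 line (35.7%, against 9.25%) and 22 in HCC827-like barcodes (22.4%, against 15.2%).

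The 6 members with most UMIs held 26.9% of all member UMIs, and each differed at least 2-fold between its highest and its lowest line. LINC01876 (ENSG00000226383, chr2:156254918-156254918) had 965 CPM (939.8 to 991) in HCC827-like barcodes, against 527 in the S100A9 line, 417 in the SLC30A8 line, 386 in the DHRS2 line and 192 in A549-like barcodes. LINC00511 (ENSG00000227036), a gene often reported as raised in lung and breast tumours, lies in the gene desert beside SOX9, a transcription factor of the developing lung, with annotated starts over chr17:72339568-72640472. Its levels were 612 CPM (588 to 637) in A549-like barcodes, against 401 in the DHRS2 line, 377 in HCC827-like barcodes, 217 in the S100A9 line and 92.5 in the SLC30A8 line. LINC01876 was thus lowest where LINC00511 was highest. LINC02163 (ENSG00000251026, chr5:104079847-104079919), which RefSeq calls NIHCOLE and which is known from liver cancer as an RNA that aids the joining of broken DNA ends, had 1146 CPM (1118 to 1174) in HCC827-like barcodes, against 156 in A549-like barcodes, 59.2 in the S100A9 line, 34.01 in the DHRS2 line and 10.9 in the SLC30A8 line. LINC02742 (ENSG00000249867, chr11:28702607-28902247) had 445 CPM (429 to 461) in the S100A9 line, against 185 in HCC827-like barcodes, 158 in the DHRS2 line, 49.5 in A549-like barcodes and 4.24 in the SLC30A8 line. LINC01572 (ENSG00000261008) had 372 CPM (357 to 389) in HCC827-like barcodes, against 258 in the DHRS2 line, 216 in A549-like barcodes, 95.4 in the S100A9 line and 77.6 in the SLC30A8 line, and LINC01473 (ENSG00000237877) had 331 CPM (316 to 346) in HCC827-like barcodes, against 229.8 in A549-like barcodes, 189 in the S100A9 line, 160.5 in the DHRS2 line and 129.9 in the SLC30A8 line.

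**Figure D1:**
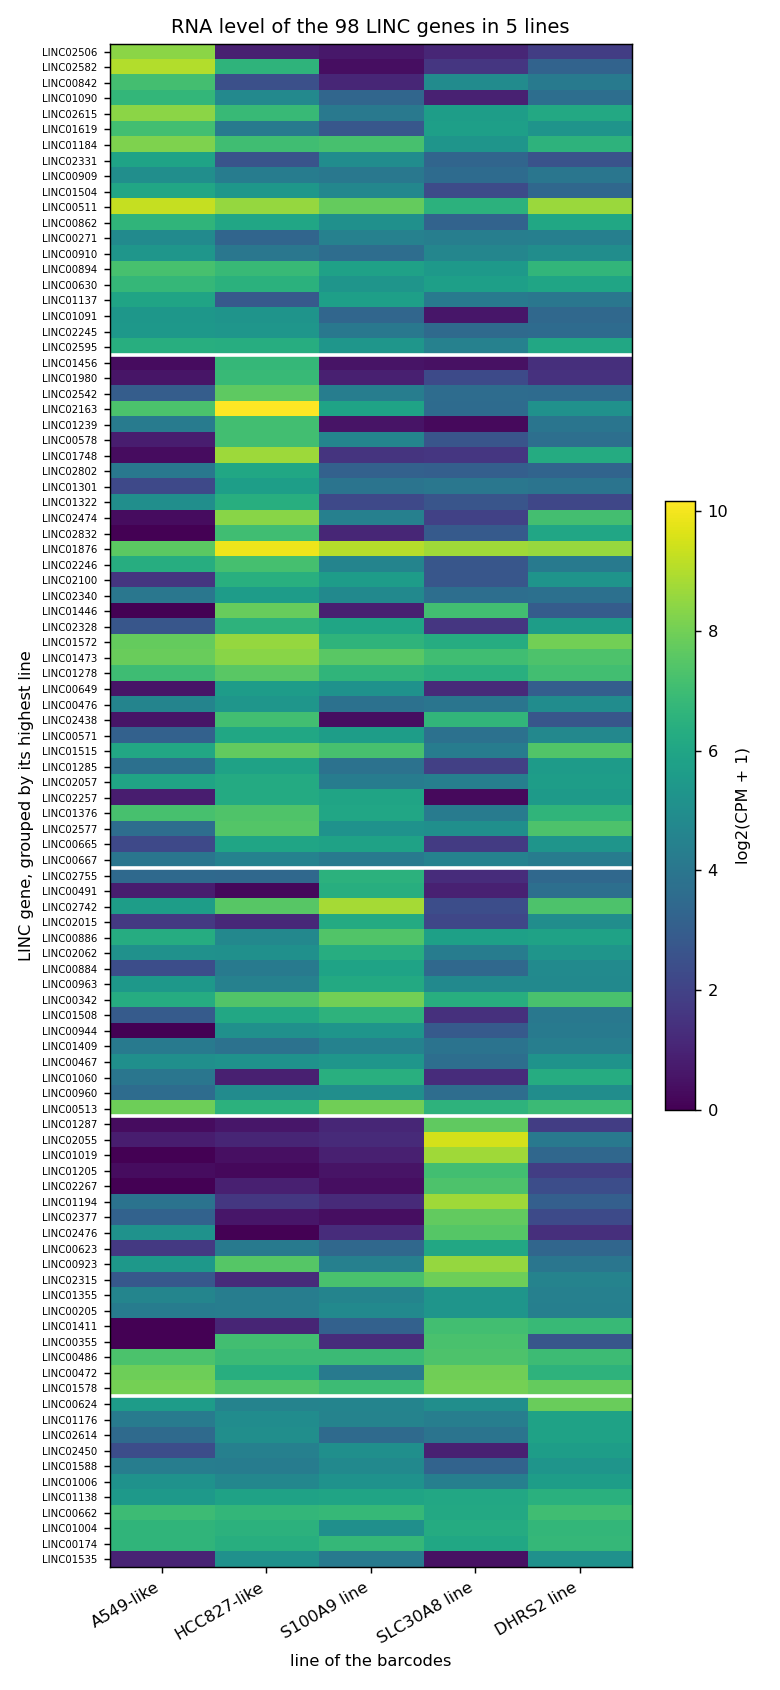
RNA level of the 98 LINC genes (rows, grouped by the line where each is highest) in the 5 lines (columns), as log2(CPM + 1) from dark (0) to yellow (about 1146 CPM). The largest block, of 33 genes, is highest in HCC827-like barcodes, and the upper rows of the SLC30A8 block are dark in the other 4 lines.

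A member was counted as leading in a line when its CPM + 1 there was at least 4-fold that of the next line. This held for 21 of 98 members (21.4%), against 4.32% of all 9181 genes, members included. The SLC30A8 line held 8 of the 21 (8.16% of members, against 0.828% of all genes) and HCC827-like barcodes 7 (7.14%, against 0.839%). A549-like barcodes held 3 (3.06%, against 1.09%), the S100A9 line 2 (2.04%, against 1.12%) and the DHRS2 line 1 (1.02%, against 0.447%). A specificity index over the 5 lines, tau, which runs between 0 for equal log2(CPM + 1) in all lines and 1 for a gene found in 1 line only, had a median of 0.366 over members. It was 0.144 over all genes with at least 1000 UMIs, 0.140 over coding ones and 0.217 over other noncoding or unnamed ones. Tau was at least 0.5 in 31 members (31.6%), against 5.12% of all genes. The median highest level of members, 109 CPM, was above that of all these genes, 85.0 CPM. Their median of UMIs over all barcodes was below it, at 2406.5 against 2920. Both sets had to pass the same minimum of UMIs over all barcodes. A gene held by few lines must be higher in them to pass, so the higher level follows in part from the rule. A leading member can pass through its own line almost alone, as LINC01019 did with 2268 of its 2335 assigned UMIs in the SLC30A8 line. The count of leading members and tau therefore depend on the minimum too. With a minimum of 2000 UMIs, 10 members led and the median tau was 0.286. The values of all genes were not computed at that minimum.

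In the SLC30A8 line, 8 LINC genes stood far above the other lines. LINC02055 on chromosome 8 (ENSG00000254101, starts over chr8:135859369-136789834) had 723 CPM (700.3 to 746) in the SLC30A8 line, against 16.3 in the DHRS2 line, 1.30 in the S100A9 line, 1.05 in HCC827-like barcodes and 0.749 in A549-like barcodes. LINC01194 (ENSG00000248131, chr5:12574830-12574857) had 421 CPM (404 to 438) in the SLC30A8 line, against 13.7 in A549-like barcodes, 7.35 in the DHRS2 line, 2.11 in HCC827-like barcodes and 1.30 in the S100A9 line. LINC01019 (ENSG00000248118, chr5:3536094-3536094), which lies beside the homeobox gene IRX1, had 418 CPM (401 to 436) in the SLC30A8 line, against 9.42 in the DHRS2 line, 0.867 in the S100A9 line, 0.352 in HCC827-like barcodes and 0 in A549-like barcodes. Each of these 3 was at or below 16.3 CPM outside its line, and the log2 ratio to the next line was 5.39, 4.84 and 5.33 in this order. LINC02377 (ENSG00000250102, chr4:131379717-131379760) had 209 CPM (197 to 221) in the SLC30A8 line, against 8.24 in A549-like barcodes, 3.83 in the DHRS2 line, 0.527 in HCC827-like barcodes and 0.289 in the S100A9 line. LINC01287 (ENSG00000234722, chr7:153412571-153413985) had 205 CPM (193 to 218) in the SLC30A8 line, against 2.56 in the DHRS2 line, 1.16 in the S100A9 line, 0.527 in HCC827-like barcodes and 0.250 in A549-like barcodes. LINC02476 (ENSG00000225546, chr7:119907375-119907397) was the exception among the 8 in having a clear second line, with 177 CPM (166 to 189) in the SLC30A8 line, against 34.98 in A549-like barcodes, 1.60 in the DHRS2 line, 1.44 in the S100A9 line and 0 in HCC827-like barcodes. Its 0 UMIs in HCC827-like barcodes allow up to 0.527 CPM, the worth of 3 counts. LINC02267 (ENSG00000248510, chr4:96310701-96310732) had 158 CPM (148 to 169) in the SLC30A8 line, against 4.31 in the DHRS2 line, 0.879 in HCC827-like barcodes, 0.289 in the S100A9 line and 0 in A549-like barcodes, and LINC01205 (ENSG00000228980, chr3:109409990-109410162) had 134 CPM (125 to 144) in the SLC30A8 line, against 2.56 in the DHRS2 line, 0.433 in the S100A9 line, 0.250 in A549-like barcodes and 0.176 in HCC827-like barcodes. IRX1, a developmental regulator, had no UMI in any assigned barcode, while LINC01019 had 418 CPM in the SLC30A8 line.

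The DHRS2 line was second for 5 of these 8 genes, at 2.56 to 16.3 CPM. With only the 500 barcodes of at least 90% marker purity, the log2 ratio to the next line was 8.64 for LINC02055, 7.90 for LINC01019, 7.06 for LINC02267, 6.84 for LINC01287, 6.52 for LINC01194 and 6.50 for LINC01205, all above their values at a purity of 70% by more than the counting interval. It was 5.06 for LINC02377, against 4.51 at 70%, and 2.11 for LINC02476, against 2.31, both within the interval. A UMI of LINC02055 was found in 531 of 552 barcodes (96.2%, 94.2 to 97.6%) of the SLC30A8 line, at a median of 7158.5 UMIs, and in 23 of 1699 barcodes of the other lines (1.35%, 0.860 to 2.02%), at a median of 8801 UMIs. For LINC01019 the shares were 493 of 552 barcodes (89.3%, 86.4 to 91.8%) and 13 of 1699 barcodes of the other lines (0.765%, 0.408 to 1.30%). For LINC01194 they were 464 of 552 barcodes (84.1%, 80.7 to 87.01%) and 43 of 1699 barcodes of the other lines (2.53%, 1.84 to 3.39%).

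Of the 8 genes, 6 had a peak near a start, each highest in the SLC30A8 line. At 4 of the 6, LINC02055, LINC01019, LINC01287 and LINC01205, the ratio of CPM + 1 to the next line was smaller for the peaks than for the RNA. The added 1 CPM lowers the ratio of weak peaks more than that of the RNA. At LINC01019 it makes most of the gap, since the next line had 0.742 CPM by peak and 9.42 CPM by RNA. The single peak over the start of LINC01194 had 58.8 CPM (52.7 to 65.4) in the SLC30A8 line, against 1.13 in A549-like barcodes, 1.04 in the DHRS2 line, 0.457 in the S100A9 line and 0.277 in HCC827-like barcodes. The single peak at LINC02377 had 47.5 CPM (42.04 to 53.5) in the SLC30A8 line, against 0.668 in the DHRS2 line, 0.614 in A549-like barcodes, 0.343 in the S100A9 line and 0.138 in HCC827-like barcodes. The ratio of CPM + 1 to the next line was 28.1 for the peak and 28.6 for the RNA of LINC01194, and 29.1 for the peak and 22.7 for the RNA of LINC02377. At LINC01019 the peak had 28.9 CPM (24.7 to 33.7) in the SLC30A8 line, against 0.742 in the DHRS2 line, 0.277 in HCC827-like barcodes, 0.205 in A549-like barcodes and 0.171 in the S100A9 line, a ratio of 17.2 to the next line. At LINC01287 it had 21.8 CPM (18.2 to 25.96) in the SLC30A8 line, against 0.830 in HCC827-like barcodes, 0.668 in the DHRS2 line, 0.307 in A549-like barcodes and 0.0571 in the S100A9 line, and at LINC01205 4.43 CPM (2.88 to 6.51) in the SLC30A8 line, against 0.371 in the DHRS2 line, 0.277 in HCC827-like barcodes, 0.229 in the S100A9 line and 0.102 in A549-like barcodes. LINC02055 has 9 nearby peaks along its many starts, which summed to 46.3 CPM (40.9 to 52.2) in the SLC30A8 line, against 7.94 in the S100A9 line, 5.42 in the DHRS2 line, 3.04 in HCC827-like barcodes and 1.59 in A549-like barcodes. LINC02476 and LINC02267 had no peak within 2000 bases. The other peaks in the 500 kb on either side differed less between lines: around LINC02377 they summed to 33.5 CPM in the SLC30A8 line, against 25.4 in the S100A9 line, 11.5 in HCC827-like barcodes, 6.19 in A549-like barcodes and 5.20 in the DHRS2 line. Around LINC01019 they summed to 18.8 CPM in the SLC30A8 line, against 8.72 in HCC827-like barcodes, 4.97 in the S100A9 line, 3.12 in the DHRS2 line and 1.74 in A549-like barcodes, and around LINC01205 to 136 CPM in the SLC30A8 line, against 107 in the S100A9 line, 106 in the DHRS2 line, 74.9 in HCC827-like barcodes and 40.1 in A549-like barcodes. Around LINC01194 hardly any other peak was called, at 0.102 to 1.56 CPM per line.

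The promoters of 2 of these genes lie wholly inside their line-restricted peak, so their sequence is shown, with that of LINC00662, a gene of even level, for comparison. The windows are RefSeq's on GRCh38.p14, of 250 bases before and 50 after the start, printed in the direction of transcription. LINC01019 is at chr5:3536045-3536344 on the minus strand, LINC01205 at chr3:109409740-109410039 on the plus strand and LINC00662 at chr19:27793891-27794190 on the minus strand. Capitals mark matches, on either strand, to the 11 motifs searched.
LINC01019: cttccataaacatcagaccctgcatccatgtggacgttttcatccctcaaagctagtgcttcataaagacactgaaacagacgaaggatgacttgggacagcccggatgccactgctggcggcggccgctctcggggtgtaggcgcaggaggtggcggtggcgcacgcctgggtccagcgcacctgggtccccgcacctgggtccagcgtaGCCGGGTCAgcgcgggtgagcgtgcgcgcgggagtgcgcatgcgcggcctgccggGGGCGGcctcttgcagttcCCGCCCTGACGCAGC
LINC01205: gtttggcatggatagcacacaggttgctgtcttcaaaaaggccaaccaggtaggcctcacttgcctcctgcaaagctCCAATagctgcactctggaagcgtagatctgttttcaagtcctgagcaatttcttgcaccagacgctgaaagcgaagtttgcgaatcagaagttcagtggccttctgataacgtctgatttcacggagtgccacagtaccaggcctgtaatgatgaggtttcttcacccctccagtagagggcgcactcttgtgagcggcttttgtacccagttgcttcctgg
LINC00662: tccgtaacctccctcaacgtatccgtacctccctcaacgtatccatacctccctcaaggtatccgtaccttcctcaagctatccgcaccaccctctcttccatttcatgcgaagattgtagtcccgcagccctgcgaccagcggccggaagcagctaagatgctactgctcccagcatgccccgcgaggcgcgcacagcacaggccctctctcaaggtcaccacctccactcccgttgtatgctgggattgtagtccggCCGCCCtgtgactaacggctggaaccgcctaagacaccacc
The motifs were TGANTCA for AP-1, TGACGTCA for the cyclic AMP response, TGACNNNGC for the antioxidant response core bound by NRF2 and small MAF proteins, TGTTTAC for forkhead factors, GGAATG for TEAD factors, AACCGGTT for grainyhead factors, CACGTG for the E box, GGGCGG for the GC box, the element CCAAT, the element TATAAA of the TATA box and the palindrome of HNF1. LINC01019 holds TGACNNNGC at 2 places, which 13.6% of all 27305 windows hold at least once, and GGGCGG at 2 places, held by 44.6% of windows. One match of each lies end to end without overlap. LINC01205 holds CCAAT, found in 35.7% of windows, and LINC00662 holds GGGCGG. LINC01019 and LINC00662 are rich in CpG, with 28 and 20 CpG dinucleotides and an observed over expected ratio of 0.850 and 0.847, while LINC01205 has 8 and a ratio of 0.416. A match says only that the letters are there.

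**Figure D2:**
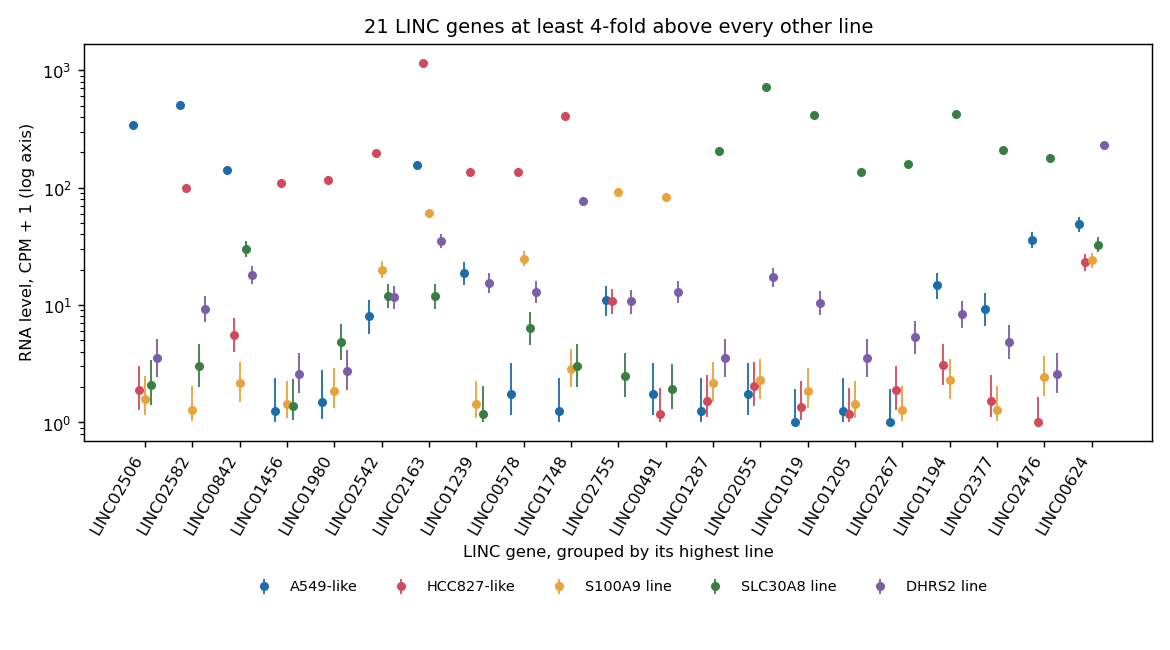
RNA level as CPM + 1 (log axis) of the 21 LINC genes that led 1 line by at least 4-fold, with exact 95% Poisson intervals as bars and 1 point per line. The points of the leading line sit between about 82 and 1146 CPM, and for LINC02055, LINC01019, LINC01287 and LINC01205 all other lines sit at or below 16.3 CPM.

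HCC827-like barcodes, whose line carries an amplified EGFR gene, led in 7 LINC genes, and none of the 98 members lies within 500 kb of EGFR. LINC02163 had the highest level of any member in any line (above), at 2.87 log2 units over the next line. LINC01748 (ENSG00000226476, chr1:60601677-60640498) had 403 CPM (386 to 419.7) in HCC827-like barcodes, against 75.2 in the DHRS2 line, 2.03 in the SLC30A8 line, 1.88 in the S100A9 line and 0.250 in A549-like barcodes. Its closest coding gene, the transcription factor gene NFIA, had 1053 CPM in A549-like barcodes, 307 in the SLC30A8 line, 250.2 in HCC827-like barcodes, 238 in the S100A9 line and 192 in the DHRS2 line. The member and its neighbour thus differed in the line where they were highest. LINC02542 (ENSG00000226453, chr6:82101765-82169391) had 197 CPM (186 to 209) in HCC827-like barcodes, against 19.1 in the S100A9 line, 11.1 in the SLC30A8 line, 10.7 in the DHRS2 line and 6.995 in A549-like barcodes. LINC01980 (ENSG00000225548, chr3:27797557-27797563) had 115 CPM (106 to 124) in HCC827-like barcodes, against 3.87 in the SLC30A8 line, 1.76 in the DHRS2 line, 0.867 in the S100A9 line and 0.4996 in A549-like barcodes, and LINC01456 on the X chromosome (ENSG00000225882, chrX:18104644-18104644) had 109 CPM (100.4 to 118) in HCC827-like barcodes, against 1.60 in the DHRS2 line, 0.433 in the S100A9 line, 0.369 in the SLC30A8 line and 0.250 in A549-like barcodes. Both lacked any peak within 2000 bases, so their RNA could not be set beside accessibility. LINC00578 (ENSG00000228221, chr3:177441927-177722170) had 135 CPM (125 to 145) in HCC827-like barcodes, against 23.8 in the S100A9 line, 11.98 in the DHRS2 line, 5.34 in the SLC30A8 line and 0.749 in A549-like barcodes.

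Where these genes had nearby peaks, the peaks set HCC827-like barcodes less apart from the other lines than the RNA did, by ratios of CPM + 1. LINC01239, which also led here, is given with its peaks further below. At LINC01748 this is not settled. The added 1 CPM lowers the ratio of its weak peak, whose interval in the DHRS2 line was 1.70 to 4.41 CPM. The peak at LINC01748 had 10.4 CPM (7.33 to 14.3) in HCC827-like barcodes, against 2.82 in the DHRS2 line, 0.102 in A549-like barcodes, 0 in the S100A9 line and 0 in the SLC30A8 line, a ratio of 2.98 to the next line. At LINC02163 the single nearby peak was weak, with 3.74 CPM (2.02 to 6.33) in HCC827-like barcodes, against 1.996 in A549-like barcodes, 1.39 in the SLC30A8 line, 0.686 in the S100A9 line and 0.148 in the DHRS2 line. The 4 peaks near LINC02542 had 14.9 CPM (11.2 to 19.5) in HCC827-like barcodes, against 23.1 in the S100A9 line, 16.7 in A549-like barcodes, 16.03 in the DHRS2 line and 15.7 in the SLC30A8 line. Those 4 peaks were not highest in HCC827-like barcodes although the RNA was. The 47 peaks along LINC00578 had 182 CPM (169 to 197) in HCC827-like barcodes, against 337 in the S100A9 line, 194 in the DHRS2 line, 125 in the SLC30A8 line and 76.9 in A549-like barcodes, and were likewise highest in another line.

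In all, 3 members led in A549-like barcodes, and LINC02506 did so most. LINC02506 (ENSG00000251129, chr4:31997379-31997385) had 339 CPM (321 to 358) in A549-like barcodes, against 2.56 in the DHRS2 line, 1.11 in the SLC30A8 line, 0.879 in HCC827-like barcodes and 0.578 in the S100A9 line, a log2 ratio of 6.58 to the next line. Its single peak had 8.09 CPM (6.40 to 10.1) in A549-like barcodes, against 0.277 in HCC827-like barcodes, 0.174 in the SLC30A8 line, 0.148 in the DHRS2 line and 0.114 in the S100A9 line. A UMI was found in 466 of 658 barcodes (70.8%, 67.2 to 74.3%) of the A549-like kind, at a median of 4609.5 UMIs, and in 17 of 1593 barcodes of the other lines (1.07%, 0.623 to 1.70%), at a median of 10954 UMIs. The closest coding gene, the protocadherin gene PCDH7, starts 1276525 bases away and had 775 CPM in HCC827-like barcodes, 484 in the DHRS2 line, 124 in the S100A9 line, 9.03 in the SLC30A8 line and 5.50 in A549-like barcodes, the lowest where LINC02506 was highest. LINC02582 (ENSG00000261780, chr18:73324941-73325110) had 509 CPM (487 to 531) in A549-like barcodes, against 97.8 in HCC827-like barcodes, 8.30 in the DHRS2 line, 2.03 in the SLC30A8 line and 0.289 in the S100A9 line. HCC827-like barcodes were a clear second line for it. LINC00842 (ENSG00000285294, chr10:46398362-46398362) had 139 CPM (128 to 151) in A549-like barcodes, against 28.9 in the SLC30A8 line, 17.1 in the DHRS2 line, 4.57 in HCC827-like barcodes and 1.16 in the S100A9 line. The next A549-like gene, LINC01090 (ENSG00000231689, starts over chr2:188287634-188384313), missed the 4-fold rule with 106 CPM (95.8 to 116) in A549-like barcodes, against 26.9 in HCC827-like barcodes, 11.7 in the DHRS2 line, 9.25 in the S100A9 line and 0.921 in the SLC30A8 line.

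In the S100A9 line, LINC00491 and LINC02755 led, and neither had a peak within 2000 bases. LINC00491 (ENSG00000250682, chr5:102636434-102636450) had 82.2 CPM (75.6 to 89.3) in the S100A9 line, against 11.98 in the DHRS2 line, 0.921 in the SLC30A8 line, 0.749 in A549-like barcodes and 0.176 in HCC827-like barcodes. Its closest coding gene, the transporter gene SLCO6A1, had 46.8 CPM in the S100A9 line, 8.14 in the DHRS2 line, 2.50 in A549-like barcodes, 0.176 in HCC827-like barcodes and 0 in the SLC30A8 line, in the same order at its top. LINC02755 (ENSG00000254530, chr11:29594350-29989328) had 90.7 CPM (83.8 to 98.1) in the S100A9 line, against 9.99 in A549-like barcodes, 9.85 in HCC827-like barcodes, 9.74 in the DHRS2 line and 1.47 in the SLC30A8 line. LINC02742, which lies 692103 bases from LINC02755, was also highest in the S100A9 line, and LINC02015 (ENSG00000231574, chr3:177816865-177827783) had 72.2 CPM (66.05 to 78.9) in the S100A9 line, against 30.5 in the DHRS2 line, 3.50 in the SLC30A8 line, 2.25 in A549-like barcodes and 1.23 in HCC827-like barcodes. In the DHRS2 line only LINC00624 (ENSG00000278811, chr1:147517875-147517875) led, with 231 CPM (219 to 243) in the DHRS2 line, against 47.7 in A549-like barcodes, 31.7 in the SLC30A8 line, 23.1 in the S100A9 line and 22.2 in HCC827-like barcodes. It lies in a part of chromosome 1 with near-identical copies, as do LINC00623, LINC01138 and LINC02802, and reads may have been split between copies. The members of the DHRS2 line next in rank were LINC01176 with 56.5 CPM (50.8 to 62.7) in the DHRS2 line, against 29.7 in HCC827-like barcodes, 22.3 in the S100A9 line, 19.3 in the SLC30A8 line and 17.7 in A549-like barcodes, LINC02614 with 56.2 CPM (50.5 to 62.4) in the DHRS2 line, against 31.6 in HCC827-like barcodes, 14.01 in the SLC30A8 line, 10.5 in the S100A9 line and 10.5 in A549-like barcodes and LINC02450 with 49.3 CPM (44 to 55.2) in the DHRS2 line, against 32.8 in the S100A9 line, 20.6 in HCC827-like barcodes, 4.25 in A549-like barcodes and 0.921 in the SLC30A8 line. The leads of the S100A9 and DHRS2 lines rested on pure barcodes: with a purity of 50% they numbered 1 and 0, and with ATAC clusters in place of RNA markers both were 0.

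Many members were shared by a subset of lines rather than held by 1. Counting the lines within 4-fold of a member's highest level, 21 members were in 1 line, 21 in 2 (21.4%, against 5.66% of all genes), 14 in 3 (14.3%, against 7.71%), 13 in 4 (13.3%, against 14.4%) and 29 in all 5 (29.6%, against 67.9%). The most frequent subset was HCC827-like barcodes with the S100A9 and DHRS2 lines, with 10 members (10.2%, against 2.77% of all genes). LINC00665 was one, with 61.4 CPM in HCC827-like barcodes, 57.5 in the S100A9 line, 38.01 in the DHRS2 line, 3.75 in A549-like barcodes and 2.40 in the SLC30A8 line. LINC02257 was another, with 72.3 CPM in HCC827-like barcodes, 60.4 in the S100A9 line, 45.5 in the DHRS2 line, 0.749 in A549-like barcodes and 0.184 in the SLC30A8 line. These 3 lines are also those with the higher mitochondrial shares, whose part in the pattern was not tested.

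**Figure D3:**
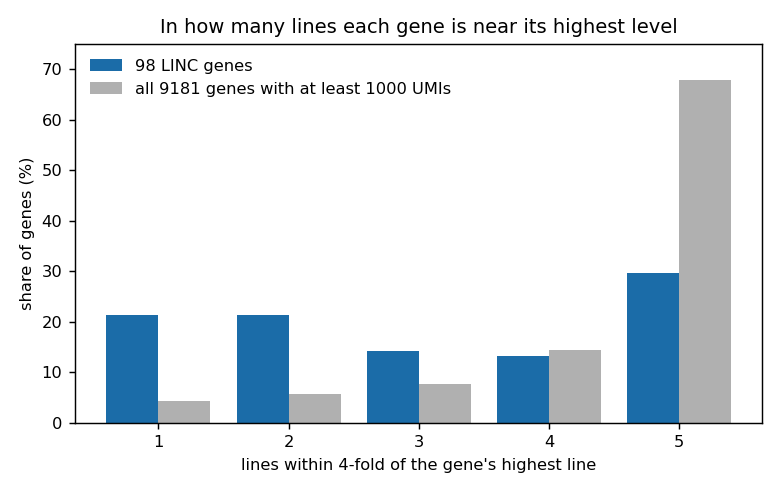
Share of genes (y axis, %) by the number of lines within 4-fold of the gene's highest level (x axis), for the 98 LINC genes (blue) and all 9181 genes with at least 1000 UMIs (grey). The LINC genes stand at 21.4% for 1 line and 29.6% for all 5, against 4.32% and 67.9% of all genes.

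HCC827-like barcodes and the SLC30A8 line had 5 members in common (5.10%, against 0.294% of all genes). LINC01446 (ENSG00000205628, chr7:53780235-53811942) had 222 CPM in HCC827-like barcodes, 135 in the SLC30A8 line, 6.71 in the DHRS2 line, 0.867 in the S100A9 line and 0 in A549-like barcodes. LINC00355 (ENSG00000227674, chr13:64076011-64076044) had 151 CPM in the SLC30A8 line, 134 in HCC827-like barcodes, 5.59 in the DHRS2 line, 1.44 in the S100A9 line and 0 in A549-like barcodes, and LINC02438 had 134 CPM in HCC827-like barcodes, 104 in the SLC30A8 line, 5.59 in the DHRS2 line, 0.4996 in A549-like barcodes and 0.289 in the S100A9 line. All 3 were high in the same pair and at or below 6.71 CPM elsewhere. LINC00923 had 373 CPM in the SLC30A8 line, 178 in HCC827-like barcodes, 41.7 in A549-like barcodes, 20.7 in the S100A9 line and 14.9 in the DHRS2 line, and LINC00623 was the fifth. Their peaks marked the same 2 lines: the single peak at LINC01446 had 29.2 CPM (24.9 to 33.9) in the SLC30A8 line, against 15.5 in HCC827-like barcodes, 1.11 in the DHRS2 line, 0.154 in A549-like barcodes and 0.114 in the S100A9 line, and the 3 at LINC00355 had 56.3 CPM (50.3 to 62.7) in the SLC30A8 line, against 24.1 in HCC827-like barcodes, 1.20 in the S100A9 line, 1.11 in the DHRS2 line and 0.409 in A549-like barcodes. At LINC02438 the 2 peaks had 13.9 CPM (11.02 to 17.3) in the SLC30A8 line, against 10.2 in HCC827-like barcodes, 0.768 in A549-like barcodes, 0.514 in the S100A9 line and 0.445 in the DHRS2 line. The pair of HCC827-like barcodes and the DHRS2 line had 4 members (4.08%, against 0.850%), LINC02474, LINC02577, LINC02832 and LINC01285. LINC02474 had 327 CPM in HCC827-like barcodes, 139.7 in the DHRS2 line, 20.2 in the S100A9 line, 2.95 in the SLC30A8 line and 0.250 in A549-like barcodes, and LINC02832 had 129.9 CPM in HCC827-like barcodes, 64.4 in the DHRS2 line, 6.27 in the SLC30A8 line, 1.16 in the S100A9 line and 0 in A549-like barcodes. A549-like with HCC827-like barcodes had 5 members (5.10%, against 0.490%), and 8 were in all lines but the SLC30A8 line (8.16%, against 3.54%). LINC02315 was alone in joining the S100A9 and SLC30A8 lines, with 243 CPM in the SLC30A8 line, 149 in the S100A9 line, 22.4 in the DHRS2 line, 5.996 in A549-like barcodes and 1.41 in HCC827-like barcodes. LINC01411 joined the SLC30A8 and DHRS2 lines, with 137 CPM in the SLC30A8 line, 114 in the DHRS2 line, 7.80 in the S100A9 line, 1.05 in HCC827-like barcodes and 0 in A549-like barcodes.

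LINC02474 and LINC02257 overlap on chromosome 1 and were both highest in HCC827-like barcodes. Their order differed in the S100A9 line, where LINC02257 had 60.4 CPM and LINC02474 20.2 CPM. Since the sources used here do not give whether counting used strand, reads of overlapping genes cannot be told apart. In RefSeq 62 of the 98 members overlap another gene and 9 overlap a coding gene.

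At the even end, 7 members had a tau below 0.1. LINC00486 (ENSG00000230876, chr2:32825359-32841014) had 159.8 CPM in the SLC30A8 line, 154 in A549-like barcodes, 125 in the DHRS2 line, 122 in the S100A9 line and 119.7 in HCC827-like barcodes. Its single nearby peak was close to 0, with 31 counts over the 5 lines and at most 0.969 CPM, in HCC827-like barcodes. LINC00662 (ENSG00000261824, chr19:27793138-27793996) had 131 CPM in the DHRS2 line, 126 in A549-like barcodes, 111 in the S100A9 line, 106 in HCC827-like barcodes and 68.4 in the SLC30A8 line. LINC00174 (ENSG00000179406, chr7:66401338-66493517) had 109 CPM in the DHRS2 line, 108 in the S100A9 line, 98.2 in A549-like barcodes, 81.1 in HCC827-like barcodes and 64.9 in the SLC30A8 line. Of these 3 the SLC30A8 line was the lowest for LINC00662 and LINC00174 and the highest for LINC00486. LINC00667 (ENSG00000263753, chr18:5238074-5238780) had 21.8 CPM in HCC827-like barcodes, 21.6 in the SLC30A8 line, 18.4 in the DHRS2 line, 17.3 in the S100A9 line and 14.7 in A549-like barcodes. LINC01578 (ENSG00000272888, chr15:92819540-92887756), called CHASERR in RefSeq, is known to hold down the chromatin remodeller gene CHD2 next to it, and had 259.6 CPM in the SLC30A8 line, 259 in A549-like barcodes, 216 in the DHRS2 line, 163 in HCC827-like barcodes and 123 in the S100A9 line. CHD2 itself had 580.3 CPM in the SLC30A8 line, 448 in A549-like barcodes, 386 in HCC827-like barcodes, 381 in the DHRS2 line and 277 in the S100A9 line. Both were lowest in the S100A9 line, while the levels of LINC01578 in the SLC30A8 line and in A549-like barcodes differed by less than their counting intervals.

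Promoter composition was read from RefSeq's windows for 2 ranges of tau. Of the 98 members, 63 had a promoter window in the RefSeq table. An observed over expected CpG ratio of at least 0.6 was found in 15 of 23 members with a tau under 0.2 (65.2%), and in 3 of 14 with a tau of at least 0.5 (21.4%). The share was 49.0% of all windows, 65.8% of the windows of coding genes and 16.3% of those of all LINC genes. LINC01019 above is thus one of 3 CpG-rich promoters among the most line-restricted members. The motif TATAAA was in 17 of the 63 windows (27.0%), against 12.0% of all windows, and CCAAT in 28 (44.4%), against 35.7%. Matches were counted on either strand and anywhere in the window. The median GC content was 54.3% in the members' windows and 58.3% in all windows, and its part in these shares was not tested. Motif shares over the windows of all LINC genes were not computed.

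A peak lay within 2000 bases of the starts of 88 members (89.8%), against 98.3% of all genes. They had 561 nearby peaks, with a median of 2 and a maximum of 70 per member, at LINC00511. Starts spread over more than 10 kb in 40 members, so that a sum over nearby peaks covers more than a promoter for them. The line with the highest summed peak level was also the line with the highest RNA for 44 of 88 members, against 50.3% of all genes. Among leading members with a peak it was the same for 10 of 15 (66.7%), against 75.5% of all leading genes. The nearby peaks were at least 2-fold over the next line in 8 of the 15 (53.3%), against 46.4%. None of these shares stood far above the background.

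**Figure D4:**
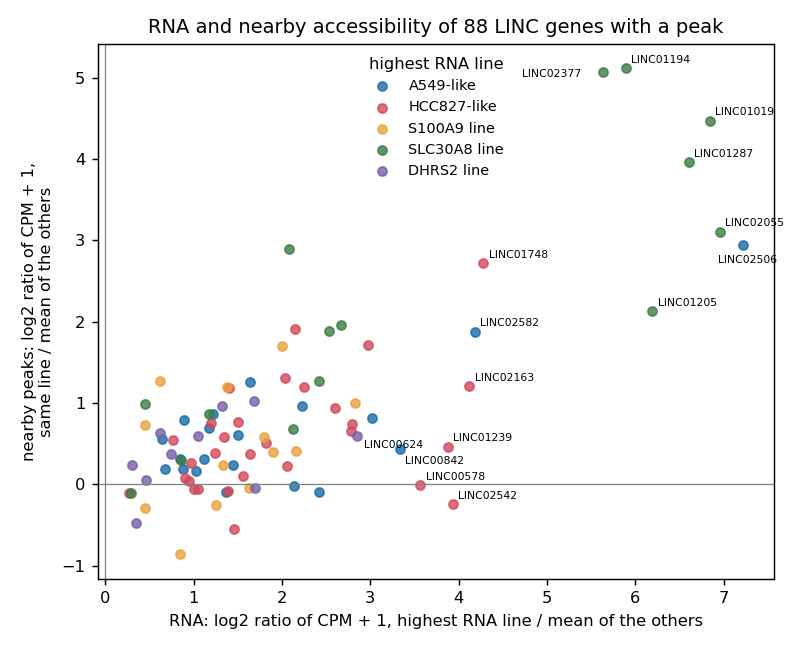
Log2 ratio of RNA CPM + 1 in a member's highest RNA line over the mean of the other lines (x axis) against the same ratio of its nearby peaks in that line (y axis), for the 88 LINC genes with a peak, coloured by that line. LINC01194, LINC02377, LINC01019 and LINC01287 sit at the upper right, while LINC02542 and LINC00578, with high RNA ratios, sit near 0 on the peak axis.

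RNA and accessibility pointed to different lines most clearly at 3 members. LINC01473 was highest in HCC827-like barcodes by RNA, but its 3 peaks had 13.5 CPM (11.2 to 16.1) in the S100A9 line, against 5.53 in HCC827-like barcodes, 2.90 in the DHRS2 line, 2.61 in A549-like barcodes and 1.74 in the SLC30A8 line. LINC01446 was highest by RNA in HCC827-like barcodes and by its peak in the SLC30A8 line, as given above. LINC01239 (ENSG00000234840, starts over chr9:22646200-22682440), on the short arm of chromosome 9, had 134 CPM (124 to 144) in HCC827-like barcodes, against 17.7 in A549-like barcodes, 14.4 in the DHRS2 line, 0.433 in the S100A9 line and 0.184 in the SLC30A8 line. Its 2 peaks had 4.68 CPM (3.19 to 6.62) in the DHRS2 line, against 2.08 in HCC827-like barcodes, 0.256 in A549-like barcodes, 0 in the S100A9 line and 0 in the SLC30A8 line. The other peaks in the 500 kb on either side summed to 118 CPM in HCC827-like barcodes, against 95.6 in A549-like barcodes, 44.1 in the DHRS2 line, 1.22 in the SLC30A8 line and 0.686 in the S100A9 line, so in the S100A9 and SLC30A8 lines the whole neighbourhood was close to 0.

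The median distance of a member to the closest coding start was 76788.5 bases. For 43 members this start lay over 100 kb away, and for 23 within 10 kb. These distances were not computed for all genes, so they are not shown to be particular to members. The line of highest level was the same as that of the closest well measured coding gene for 35 of 98 members (35.7%), against 39.5% of all genes. Some members share a start region with a coding gene and are named after it in RefSeq. LINC01184, or SLC12A2-DT, had 292 CPM in A549-like barcodes, 146 in the S100A9 line, 131 in HCC827-like barcodes, 93.7 in the DHRS2 line and 38.9 in the SLC30A8 line. SLC12A2, which encodes a sodium, potassium and chloride cotransporter, had 761 CPM in A549-like barcodes, 109.9 in HCC827-like barcodes, 92.0 in the S100A9 line, 88.3 in the DHRS2 line and 22.7 in the SLC30A8 line. The pair was highest and lowest in the same lines. LINC00884, or ATP13A3-DT, had 58.2 CPM in the S100A9 line, 28.4 in the DHRS2 line, 17.1 in HCC827-like barcodes, 9.77 in the SLC30A8 line and 4.25 in A549-like barcodes. ATP13A3, which encodes a polyamine transporter, had 394 CPM in the SLC30A8 line, 234 in the DHRS2 line, 213 in the S100A9 line, 164 in HCC827-like barcodes and 122 in A549-like barcodes, a different order. LINC01137, called LITATS1 in RefSeq and known as a brake on TGF-beta receptor signalling, had 59.7 CPM in A549-like barcodes, 51.9 in the S100A9 line, 17.3 in the SLC30A8 line, 15.2 in the DHRS2 line and 6.15 in HCC827-like barcodes.

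Within a line, some members were held by fewer barcodes than their level would give. For each member the share of barcodes with a UMI in its highest line was set against the share expected if its UMIs were spread in proportion to depth. The observed share was under 0.8 of the expected one in 16 members (16.3%), against 4.90% of all genes. LINC02476 was the lowest of the 98. It was found in 201 of 552 barcodes (36.4%, 32.4 to 40.6%) of the SLC30A8 line, where 72.9% were expected, and in 40 of 1699 barcodes of the other lines (2.35%, 1.69 to 3.19%). Among the 427 barcodes of that line with at least 5000 UMIs the share was 38.4%, with 78.2% expected. The 56 barcodes with most LINC02476 held 64.5% of its UMIs, while the 56 deepest barcodes held 28.4% of all UMIs of the line. The next lowest were LINC02267, found in 272 of 552 barcodes (49.3%, 45.03 to 53.5%) with 69.5% expected, and LINC01411, found in 259 of 552 barcodes (46.9%, 42.7 to 51.2%) with 65.0% expected. LINC02582 was found in 419 of 658 barcodes (63.7%, 59.9 to 67.4%) of the A549-like kind, with 88.1% expected. At the other end were LINC00909, found in 17.2% of A549-like barcodes with 16.5% expected, and LINC00486, found in 72.6% of SLC30A8-line barcodes with 69.8% expected.

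**Figure D5:**
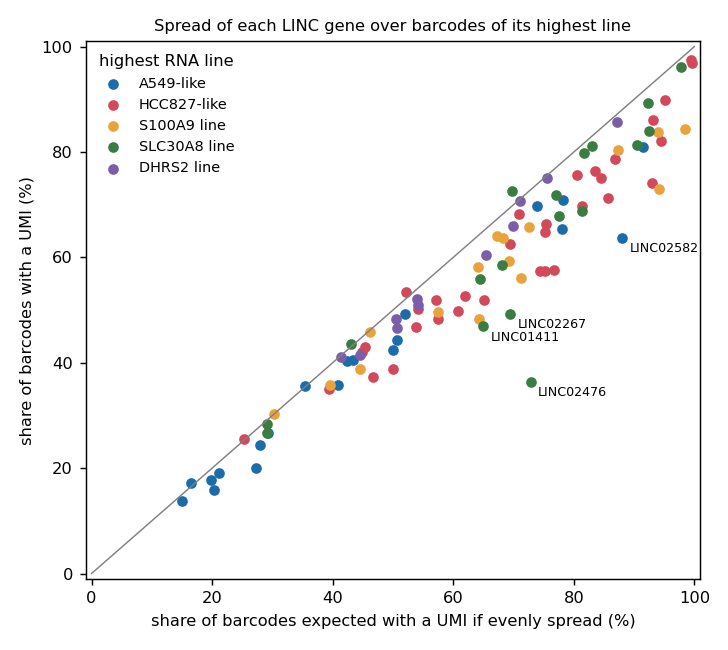
Share of barcodes with a UMI (y axis, %) against the share expected if UMIs were spread in proportion to depth (x axis, %), for each of the 98 LINC genes in its highest line. Points below the grey line of equality are genes held by fewer barcodes than expected, with LINC02476 lowest at 36.4% against 72.9%.

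Barcodes of low mitochondrial share were compared with the others inside each line by splitting at the line's median. A total that includes mitochondrial UMIs lowers every nuclear gene at high share, so the members' summed share was taken of the UMIs of other genes. It was 0.690% and 0.691% at low and high share in A549-like barcodes, 1.16% and 1.11% in HCC827-like barcodes, 0.617% and 0.570% in the S100A9 line, 0.729% and 0.675% in the SLC30A8 line and 0.638% and 0.653% in the DHRS2 line, so the direction differed between lines. With such totals the median over lines of the log2 ratio was above 0 for 54 members (55.1%), against 55.7% of all genes, and with all UMIs in the total for 74 members (75.5%), against 75.6%. The ratios and CPM that follow are of all UMIs. At least 2-fold higher at low share were 5 members in HCC827-like barcodes (5.10%, against 1.23% of all genes), 2 in A549-like barcodes (2.04%, against 0.719%), 2 in the SLC30A8 line (2.04%, against 0.773%), 1 in the S100A9 line (1.02%, against 0.109%) and 1 in the DHRS2 line (1.02%, against 1.01%). At least 2-fold lower at low share were 9 members in the DHRS2 line (9.18%, against 0.828% of all genes), 8 in the S100A9 line (8.16%, against 0.523%), 8 in the SLC30A8 line (8.16%, against 3.90%), 1 in A549-like barcodes (1.02%, against 1.37%) and 0 in HCC827-like barcodes, against 0.305%. In the DHRS2, S100A9 and SLC30A8 lines each of these lower members was highest in another line. LINC02055, for one, had 8.69 and 18.7 CPM at low and high share in the DHRS2 line. Calls in both directions include some on few UMIs. At low and high share LINC02055 had 1 and 8 UMIs in the S100A9 line and 6 and 0 in HCC827-like barcodes. LINC01194 had 0 and 9 in the S100A9 line. Others had more, such as LINC02163 with 19 and 194 UMIs in the DHRS2 line. How much of the excess over all genes is counting error was not tested. Low and high barcodes also differed in depth, with medians of 6368.5 and 22968 UMIs in the DHRS2 line and of 4678 and 4473 UMIs in A549-like barcodes. When every barcode was thinned to 1000 UMIs, with all UMIs in the total, the members above 0 numbered 55. The share of all genes was not computed for thinned barcodes. A line without UMIs of a member gives a ratio of 0, and a median of exactly 0 is not counted as above 0. What part of the drop comes from depth was not tested. The largest median ratio was that of LINC01090, at 0.73 on the log2 scale, with 38.9 and 20.1 CPM at low and high share in HCC827-like barcodes and 112 and 101 CPM in A549-like barcodes. LINC02506 followed with 0.66, although it had 367 and 317 CPM at low and high share in its own A549-like line and few UMIs elsewhere. LINC01376 came next with 0.54, having 207 and 142 CPM at low and high share in HCC827-like barcodes. The lowest ratios were -0.54 for LINC01456, -0.50 for LINC02267 and -0.47 for LINC01508. For LINC01456 and LINC02267 they came from lines with few UMIs, since in its own line LINC01456 had 122 and 101 CPM and LINC02267 183 and 146 CPM. LINC01508 had 93.96 and 94.9 CPM at low and high share in the S100A9 line, where it was highest, and 12.03 and 17 CPM in the DHRS2 line.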

How the data were processed

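The authors counted genes and peaks into 1 matrix with Cell Ranger ARC 2.0.0 (per the file headers) on GRCh38 (per the submitters' processing notes). The deposited counts are whole numbers of UMIs per gene and barcode and of cut-site counts per peak and barcode, with no normalisation. Of the non-zero peak entries 83.3% are even, so intervals of peak levels rest on pairs of counts. Positions were also read, which per the file headers span the annotated transcription starts of a gene. How cells and peaks were called, which annotation was used and whether reads were counted by strand is not given in the sources used here. Hence a gene and an overlapping or antisense one cannot be told apart.

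Barcodes with at least 1000 UMIs, 500 genes and 1000 peak counts and at most 20% mitochondrial UMIs were kept (2804 of 3298). Seed barcodes were chosen by the mean z score of fixed marker lists, with a margin of 0.5. The 30 coding genes most raised in each seed group then gave each barcode a purity per line, with Y-linked genes left out. At a purity of at least 70%, 2251 barcodes were assigned. The other 553 (median 18678 UMIs, against 8192 in assigned barcodes) were left out, which also removes droplets holding 2 lines, and no doublet caller was run. Droplets holding 2 cells of the same line were not removed. ATAC clusters came from Leiden clustering at a resolution of 0.15.

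Sums per line were scaled to CPM, and ratios are of CPM + 1, which understates ratios of low genes. The background is the 9181 genes with at least 1000 UMIs, members included. With 1 library of each kind no p-value or standard error was made, and intervals (exact Poisson for sums, exact Clopper-Pearson binomial for shares, at 95%) cover counting error only. Named are the 6 members with most UMIs, the 4 with the largest ratio to the next line in each line, the 5 most even, the 2 on either side of the UMI threshold, and any within 500 kb of EGFR or MYC. Also named are the 3 whose peaks were most raised in another line than their RNA, the 3 highest and 3 lowest by mitochondrial share, and the coding gene closest to some of the leading members. Members shared by subsets of lines, partners named in RefSeq and members with a low share of barcodes were named after their values were seen. The members, marker lists and rules were chosen with earlier results of these data known. Alternatives were the purity, the marker lists, ATAC clusters, the mitochondrial limit, TMM factors, the pseudocount, the fold, the UMI minimum, the peak distance and thinning to 1000 UMIs per barcode. The leading calls and the line assignment, but no ranking, were tried on counts simulated from the summed profiles of these same data. Python 3.11.15, numpy 2.4.6, scipy 1.17.1, pandas 2.3.3, scanpy 1.11.5, R 4.3.3 and edgeR 4.0.16 (for TMM) were used.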

Additional observations from a re-analysis of the deposited data

How the results depend on the processing

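The count of leading members, 21, lay between 18 and 23 under 8 alternatives to the line assignment and scaling. It was 36 at 2-fold, 30 with a minimum of 500 UMIs and 10 with a minimum of 2000. The number of members changes with the minimum, and the share of all genes was not computed at these settings. Of 189 comparisons of a leading member's log2 ratio with an alternative that could change it, 131 moved by less than the counting interval and 58 moved further. None turned round, and 184 kept a log2 ratio of at least 2. The median tau of members, 0.366, was 0.3801 at a purity of 90%, 0.329 at 50%, 0.359 with the fixed markers only, 0.304 with ATAC clusters and 0.286 with a minimum of 2000 UMIs. The members' share of assigned UMIs, 0.671%, was 0.664% at a purity of 90%, 0.652% at 50% and with ATAC clusters, 0.650% without a mitochondrial limit and 0.679% in barcodes whose ATAC cluster matched, an alternative chosen after seeing the data. It was 0.724% with a minimum of 500 UMIs and 0.574% with 2000, where members are more or fewer by construction. For the same reason members with a nearby peak numbered 57 with a minimum of 2000 UMIs, and members highest in the same line by RNA and peaks numbered 67 with a minimum of 500. Members above 0 at low mitochondrial share, 74, numbered 54 when totals left out mitochondrial genes, 55 when barcodes were thinned to 1000 UMIs and 52 at a purity of 90%. For the thinned barcodes and the purity of 90% the share of all genes was not computed. TMM moved the log2 scale of lines by −0.14 to 0.17. The cause of the other changes was not tested. At the depth of these lines, 3 UMIs are worth 0.433 to 0.749 CPM, so a gene with 0 UMIs may lie up to there, and levels below rest on 1 or 2 UMIs. No paired analysis was possible because there is 1 library of each kind and no test.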

Other observations

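LINC01239 lies on the short arm of chromosome 9 near DMRTA1 and the CDKN2A locus, and both coding genes were highest in the same line as LINC01239. CDKN2A, a tumour suppressor gene, had 317 CPM (302 to 332) in HCC827-like barcodes and 86.6 CPM (79.4 to 94.2) in the DHRS2 line, against 3.997 in A549-like barcodes, 2.89 in the S100A9 line and 2.76 in the SLC30A8 line. DMRTA1 had 14.1 CPM in HCC827-like barcodes, 4.75 in A549-like barcodes and 1.92 in the DHRS2 line, and 0 and 1 UMI in the S100A9 and SLC30A8 lines. LINC01239 itself had 134 CPM in HCC827-like barcodes, 17.7 in A549-like barcodes, 14.4 in the DHRS2 line, 0.433 in the S100A9 line and 0.184 in the SLC30A8 line.

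Of the coding genes closest to the 21 leading members, IRX1, KCNA4 and NETO1 had almost no RNA in any line. IRX1 beside LINC01019 had 2 UMIs over all barcodes, KCNA4, the closest to LINC02755, had 1 and NETO1, the closest to LINC02582, had 7. Others were expressed. IBTK, the closest to LINC02542, had 119 to 183 CPM per line, and KHDRBS3, the closest to LINC02055, had 85.1 CPM in HCC827-like barcodes. The share of closest coding genes with so little RNA was not computed, for the 21 or for all genes. For 14 of the 21 the closest coding start was over 100 kb away, as it was for 43 of all 98 members.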
